A study of Mus musculus with 2 samples.

Results

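Mir103-1, Mir103-2, Mir107, Mir33 and Mir378a are microRNA (miRNA) genes that lie inside genes of metabolism. They were chosen by gene name in the GENCODE M21 annotation, and all 5 were found among the 2202 miRNA genes counted. The libraries came from tissue labelled layer of hippocampus of male B6CASTF1/J mice, first-generation hybrids of C57BL/6J and CAST/EiJ, at 25 days of age, with no treatment and no altered allele named. There were 2 libraries, labelled biological replicates 1 and 2. Their biosample entries differ and their donor entry is the same, which does not settle whether they come from separate animals. Part of the variation between the libraries may thus be technical. There is 1 group and no control, so the data hold the levels of these genes in each library, their order and how far the libraries differ.

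A miRNA is cut from a hairpin in a longer transcript, and bases 2 to 8 of the mature strand, the seed, pair with the messenger RNAs it represses. Many miRNA hairpins lie in introns and are made from the transcript of the host gene. The Pank genes encode pantothenate kinases, which start the synthesis of coenzyme A from vitamin B5, and miR-103 and miR-107 are known for lowering insulin sensitivity in mouse liver and fat. Srebf2 encodes the transcription factor SREBP2, which switches on cholesterol synthesis and uptake, and miR-33 represses the cholesterol exporter Abca1. Ppargc1b encodes PGC-1β, a coactivator of mitochondrial genes, and miR-378a is known for limiting fatty acid use in mouse liver and muscle. In the brain, miR-107 is known to repress Bace1, the enzyme that makes amyloid peptide.

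The mature sequences show how little separates the Pank miRNAs from each other. They are given 5′ to 3′ from RefSeq (GRCm38.p6) with the seed in capitals, for the 4 of 5 genes that matched that table by symbol. The 3p strands of the Pank miRNA genes carry 1 seed, and no other mature sequence in that table carries it.
miR-103-3p: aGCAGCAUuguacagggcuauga
miR-107-3p: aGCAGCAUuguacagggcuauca
miR-103-1-5p: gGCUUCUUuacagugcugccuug
miR-103-2-5p: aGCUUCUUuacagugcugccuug
miR-107-5p: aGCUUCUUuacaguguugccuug
miR-33-5p: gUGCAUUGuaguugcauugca
miR-33-3p: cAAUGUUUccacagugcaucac

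Counted from 1 at the 5′ end of the first sequence named, miR-103-3p and miR-107-3p differ by the single substitution G22C, next to the last of 23 bases. The 5p strands of Mir103-1 and Mir103-2 differ only by G1A. The 5p strands of Mir103-2 and Mir107 differ only by C16U. The strand miR-103-3p is the same 23 bases at both Mir103 genes. A read within that strand therefore aligns to both places, while a read within miR-107-3p is told apart from it only where it reaches base 22. In the hairpins, printed with capitals on the longest run shared with a Mir103 hairpin, the identical run covers the whole 3p strand of the Mir103 pair and extends past it on both sides.
Mir103-1: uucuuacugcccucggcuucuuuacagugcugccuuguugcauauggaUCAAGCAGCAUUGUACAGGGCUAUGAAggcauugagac
Mir103-2: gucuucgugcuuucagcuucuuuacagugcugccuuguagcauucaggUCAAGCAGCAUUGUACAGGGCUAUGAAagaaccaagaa
Mir107: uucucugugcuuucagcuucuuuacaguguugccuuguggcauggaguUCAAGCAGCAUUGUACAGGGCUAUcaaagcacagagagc

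The run shared by Mir103-1 and Mir103-2 was 27 bases long, and that shared by Mir107 with either of them was 24 bases. The 5p strands of Mir103-1 and Mir103-2 shared 22 of 23 bases, whereas the 5p strand of Mir107 shared at most 15 bases in a row with a gene elsewhere. Mir33 stood alone, with at most 12 bases of its hairpin found in any other miRNA gene. Mir378a shared 20 bases with Mir378c and 19 with Mir378b. The Mir33 hairpin is shown with both mature strands in capitals, as the contrast to the Pank hairpins.
Mir33: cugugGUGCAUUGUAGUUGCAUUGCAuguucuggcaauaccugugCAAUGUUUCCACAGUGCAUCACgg

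**Figure D1:**
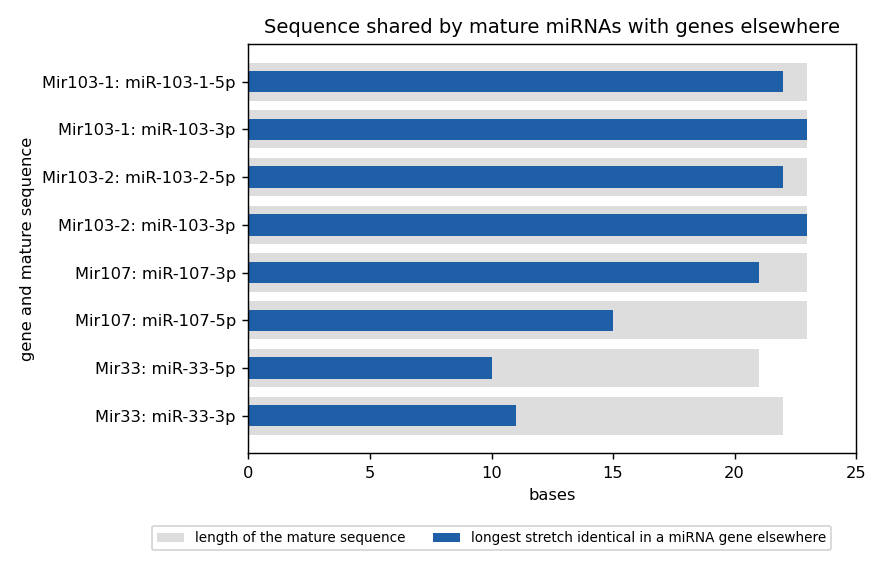
Each grey bar is the length in bases of a mature strand, and the blue bar inside it is the longest stretch also found in a miRNA gene at another place, on either DNA strand. The strand miR-103-3p is shared over all 23 bases and miR-107-3p over 21, whereas the longest shared stretches of miR-33-5p and miR-33-3p are 10 and 11 bases.

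All 5 genes lie in introns on the strand of their host (coordinates in mm10, host transcripts the APPRIS principal ones of GENCODE M21). Mir103-1 (ENSMUSG00000065553.1) is at chr11:35782396-35782481 on the plus strand, in intron 5 of 6 of Pank3. Mir103-2 (ENSMUSG00000065563.1) is at chr2:131288052-131288137 on the plus strand, in intron 5 of 6 of Pank2. Mir107 (ENSMUSG00000065594.1) is at chr19:34820687-34820773 on the minus strand, in intron 5 of 6 of Pank1. The hairpins of the Pank genes thus sit in the intron of the same number, 688 bases (Pank3), 454 bases (Pank2) and 326 bases (Pank1) after the exon before them. Mir33 (ENSMUSG00000065465.1) is at chr15:82198122-82198190 on the plus strand, in intron 16 of 18 of Srebf2 and 335 bases after exon 16. Mir378a (ENSMUSG00000105200.1) is at chr18:61397835-61397900 on the minus strand, in intron 1 of 11 of Ppargc1b, an intron of 76981 bases, 2389 bases after the first exon.

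Which of these miRNA genes did the juvenile hippocampus express? All 5 were detected, with 10 or more counts in each library, as were 20.2% of all miRNA genes. The levels fell into a high pair and a low trio. Mir378a and Mir107 had at least 2929 counts per 1000000 gene-assigned counts (CPM) in both libraries, and Mir103-2, Mir33 and Mir103-1 had at most 31.4 CPM. A read of this length spans a mature strand, so levels are given per gene-assigned read and not per length. Reads that aligned to several places stand apart from the gene counts, at 43.6% of reads in replicate 1 and 43.2% in replicate 2, so a gene whose mature strand occurs elsewhere can have a count below its true level.

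Mir378a, the miRNA of Ppargc1b, had 23020 counts in replicate 1 and 23192 in replicate 2, or 4441 and 3950 CPM. Its mean was 4196 ± 347 CPM (SD, n = 2), rank 45 of 2202, and it stood 14th among the 734 miRNA genes in introns of protein-coding genes. Mir107 had 18044 and 17198 counts, or 3481 and 2929 CPM in replicates 1 and 2. Its mean of 3205 ± 390 CPM was rank 48, and 15th among the intronic genes. Of the 445 miRNA genes detected by the same minimum, whose median was 51.2 CPM, both thus stood within the first 48.

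Mir103-2 had 163 and 168 counts, or 31.4 and 28.6 CPM in replicates 1 and 2, with a mean of 30.0 ± 2.00 CPM (SD, n = 2) and rank 251. Mir33 had 134 and 141 counts, or 25.9 and 24.0 CPM, with a mean of 24.9 ± 1.30 CPM and rank 261. These lay beside the median of 25.6 CPM of the 191 intronic miRNA genes detected. Mir103-1 was the lowest, with 38 and 43 counts, or 7.33 and 7.32 CPM, and rank 335. At this depth its exact 95% interval was 5.19 to 10.1 CPM in replicate 1 and 5.30 to 9.87 CPM in replicate 2, so the closeness of its library values is finer than read counting can resolve. Intervals are Clopper-Pearson intervals of the share of counts and cover counting error only.

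**Figure D2:**
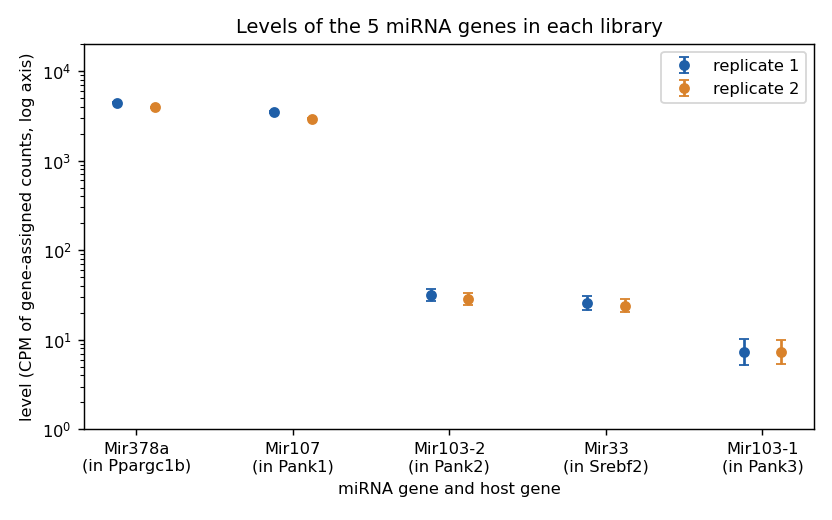
Points are the levels of the 5 genes in each library in CPM on a log axis, with exact 95% intervals of the counts, ordered by mean level. Mir378a (4441 and 3950 CPM) and Mir107 (3481 and 2929 CPM) stand above Mir103-2 (31.4 and 28.6 CPM) and Mir33 (25.9 and 24.0 CPM), and Mir103-1 is lowest.

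The order of the levels was Mir378a, Mir107, Mir103-2, Mir33 and Mir103-1 in both libraries, and for no neighbouring pair did the library values of the genes overlap. Mir378a exceeded Mir107 by 990 ± 43.1 CPM (SD of the gap, n = 2), or 1.28-fold in replicate 1 and 1.35-fold in replicate 2. Mir107 exceeded Mir103-2 by 111-fold and 102-fold. Mir103-2 exceeded Mir33 by 5.10 ± 0.704 CPM, or 1.22-fold and 1.19-fold, but the exact intervals of this pair overlapped within each library, at 26.8 to 36.7 CPM for Mir103-2 against 21.7 to 30.6 CPM for Mir33 in replicate 1. Mir33 exceeded Mir103-1 by 17.6 ± 1.29 CPM. With 1 group of 2 libraries these gaps have no test between conditions.

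Within the Pank family, the gene-assigned counts lay almost wholly at Mir107. Mir103-1 and Mir103-2 together held 201 of the 18245 family counts in replicate 1, or 1.10% (exact 95% interval 0.955 to 1.26), and 211 of 17409 in replicate 2, or 1.21% (1.05 to 1.39). Mir107 thus had 89.8 and 81.5 times the counts of both Mir103 genes in replicates 1 and 2. This ratio is one of assigned reads. The strand miR-103-3p is identical at both Mir103 genes, and 6059074 reads in replicate 1 and 6908203 in replicate 2 were set aside as aligned to several places, 30145 and 32740 times the reads assigned to the Mir103 pair. How many of those came from miR-103-3p, or from reads of miR-107-3p that end before base 22, was not tested, and the deposited counts do not separate the 5p from the 3p strand. Within the pair, Mir103-2 exceeded Mir103-1 by 4.29-fold and 3.91-fold.

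Mir378a depended on the strand of the count. On the other strand of its locus lies a second annotated miRNA gene, Gm25301, at chr18:61397813-61397925, which covers Mir378a whole. On its own strand Gm25301 had 0 counts in both libraries, and its count on the other strand was 23020 and 23192, the same as Mir378a. In the column that ignores strand, Mir378a and Gm25301 both had 0 counts. None of the 5 genes had a count on the strand opposite to it, so with the floor of 3 counts opposite-strand reads were below 0.579 CPM in replicate 1 and 0.511 CPM in replicate 2. The other 4 genes had the same counts in both columns.

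**Figure D3:**
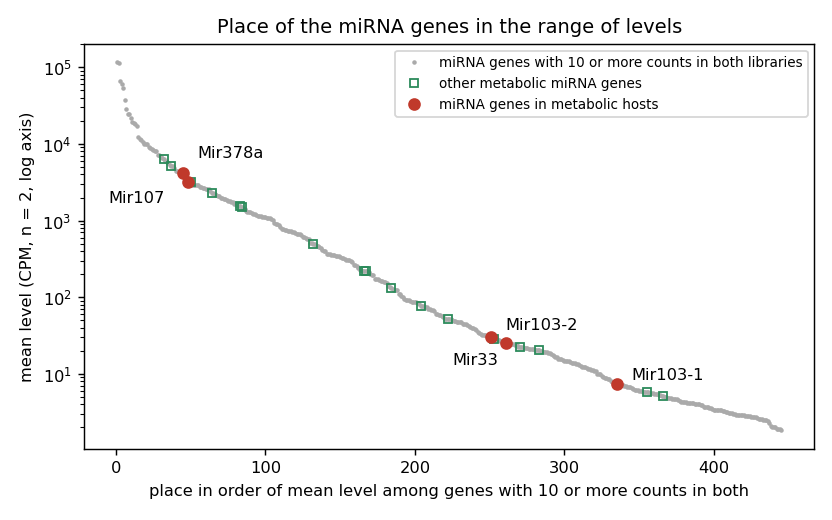
Grey points are the 445 detected miRNA genes, by place in the order of mean level (CPM, n = 2, log axis), with the 5 genes in red and the other metabolic miRNA genes as green squares. By gene-assigned counts, Mir378a and Mir107 stand at places 45 and 48, Mir103-2 and Mir33 at 251 and 261, and Mir103-1 at 335.

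How alike were the libraries for these genes? Replicate 1 held 5183641 gene-assigned reads and replicate 2 held 5871233. Over the 472 genes that averaged 10 or more counts, an exact 2-sided binomial test of the counts with Benjamini-Hochberg adjustment called 59.7% different, with 20.3% higher in replicate 1 and 39.4% higher in replicate 2, and the median log2 ratio of replicate 1 over replicate 2 was -0.18. The test compares these libraries and takes reads as independent molecules, so a call does not show a difference beyond the spread between samples. Of the 5 genes, 2 were called higher in replicate 1, none was called higher in replicate 2, and 3 did not pass, at a median log2 ratio of 0.14. The spread between the libraries over the 472 genes compared, as edgeR's common biological coefficient of variation, was 0.320. Unlike the ratios above, it was estimated after scaling by the trimmed mean of M-values.

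Mir107 had the widest difference of the 5, at 1.19-fold (exact 95% interval 1.16 to 1.21) and a log2 ratio of 0.25 (exact binomial test, adjusted p = 3.29e-58). Mir378a was 1.12-fold higher in replicate 1 (1.10 to 1.14; log2 ratio 0.17, adjusted p = 1.23e-35). These are the 2 genes with the most reads of the 5, and both log2 ratios were below the median absolute log2 ratio of 0.38 over all genes compared. Mir103-2 had a ratio of 1.10 (0.880 to 1.37; adjusted p = 0.509), Mir33 of 1.08 (0.843 to 1.37; adjusted p = 0.650) and Mir103-1 of 1.00 (0.630 to 1.59; adjusted p = 1). The intervals reach 1.59-fold for Mir103-1 and 1.37-fold for Mir103-2 and Mir33, so the counts do not exclude differences within them. The smallest difference that the test could call was not computed.

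Genes of like depth were set beside the 5. Of 47 other genes with a mean count within 2-fold of that of Mir107, 19 lay closer between the libraries, and their median absolute log2 ratio was 0.33. For Mir378a it was 11 of 39 genes, with the same median of 0.33. For Mir103-2 it was 17 of 82, for Mir33 12 of 84 and for Mir103-1 none of 94, with medians of 0.44, 0.43 and 0.40. These places depended on the scaling. With trimmed mean of M-values (TMM) scaling, which adds 0.17 to every log2 ratio, the ratios were 0.42 for Mir107, 0.34 for Mir378a, 0.31 for Mir103-2, 0.28 for Mir33 and 0.17 for Mir103-1, with the same genes past the test. The share of all other genes compared that lay closer than Mir107 was then 55.0%, against 31.9% with the gene-assigned total. For Mir378a it was 46.5% against 22.5%, for Mir103-2 44.1% against 18.4%, for Mir33 40.0% against 14.3% and for Mir103-1 24.8% against 0.214%. With TMM scaling 58.9% of all genes compared were called, 29% higher in replicate 1 and 29.9% higher in replicate 2. In bulk tissue, fewer cells of a type and less RNA per cell cannot be told apart, and this holds for every level and ratio given here.

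**Figure D4:**
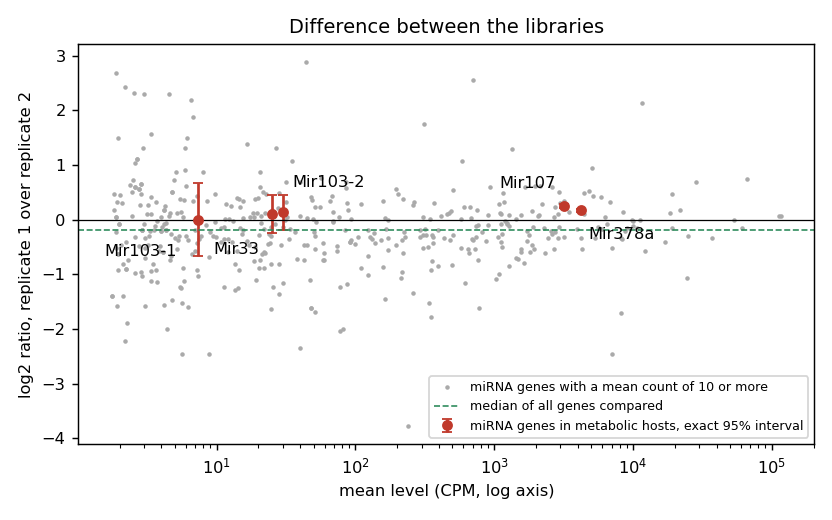
Grey points are the 472 genes compared, by mean level (CPM, log axis) and log2 ratio of replicate 1 over replicate 2, and red points are the 5 genes with the exact 95% interval of their counts. The 5 genes lie from 0.00 to 0.25, above the dashed median of all genes at -0.18.

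Did other miRNA genes of metabolism behave alike? A list of 18 genes with known roles in cholesterol, fat or glucose handling was set beside the 5. Of these, 17 were detected by the same minimum, against 20.2% of all miRNA genes, of which 1401 had no count in either library. Among genes matched to a RefSeq mature sequence, 40.9% with a strand found whole elsewhere and 38.7% of the others were detected. The list member Mir802, which lowers insulin sensitivity in mouse liver, had 0 counts in both libraries. Highest in the list was Mir128-1, which represses lipoprotein receptors and is also neuron-enriched, at 6294 ± 123 CPM (SD, n = 2). Mir26b followed at 5152 ± 1090 CPM. Mir143, which impairs insulin signalling in mouse liver and marks vessel walls, had 3167 ± 518 CPM. Mir335 in an intron of the imprinted gene Mest had 2306 ± 674 CPM, Mir128-2 had 1548 ± 70.4 CPM, and Mir27b, a repressor of lipid genes, had 1481 ± 514 CPM. The other 11 ran from 5.07 CPM for Mir223 to 498 CPM for Mir34a. Mir378a lay between Mir26b and Mir143 in both libraries. Mir107, at 3481 and 2929 CPM, and Mir143, at 3534 and 2801 CPM, stood in opposite orders in replicates 1 and 2.

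The list moved between the libraries in both directions. Of its 17 members compared, 5 were higher in replicate 1, 11 were higher in replicate 2 and 1 did not pass the binomial test, beside 20.3% and 39.4% of all genes compared. The median log2 ratio was -0.54, beside -0.18 over all genes, and the range was -1.23 for Mir27a to 0.87 for Mir223. Mir122, the defining miRNA of liver, had 20.4 CPM in replicate 1 and 36.1 CPM in replicate 2. With TMM scaling 6 were higher in replicate 1 and 10 in replicate 2. Genes with a second copy in the genome, such as Mir128-1, Mir24-1 and Mir30c-1, share the limit of the Mir103 pair.

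Relatives by sequence were counted too. The miR-15, miR-16 and miR-195 strands open with the run agcagca of miR-103-3p, moved along by 1 base, so that the seeds overlap without being the same (RefSeq, GRCm38.p6, seed in capitals).
miR-15a-5p: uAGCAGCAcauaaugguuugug
miR-16-5p: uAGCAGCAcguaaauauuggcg
miR-195a-5p: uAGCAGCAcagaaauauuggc

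These restrain the cell cycle in many tissues. Mir195a had 1025 ± 525 CPM (SD, n = 2), Mir497 875 ± 167 CPM, Mir15b 358 ± 131 CPM, Mir15a 305 ± 77.8 CPM, Mir16-1 171 ± 27.9 CPM and Mir16-2 56.7 ± 20.7 CPM. By gene-assigned counts all 6 were below Mir107 in both libraries. Mir16-1 and Mir16-2 are copies that share the limit of the Mir103 pair, so their true levels may be higher. Mir195b had 2 counts in replicate 1 and 0 in replicate 2. The other genes named after miR-378 were nearly without counts, with 15 and 12 at Mir378c, 17 and 13 at Mir378d and 1 and 2 at Mir378b, against 23020 and 23192 at Mir378a. This contrast is one of assigned reads. A read within the 20 bases that Mir378a shares with Mir378c, or the 19 shared with Mir378b, aligns to several places and counts at no gene. Of the 8 relatives compared, 1 was higher in replicate 1, 5 were higher in replicate 2 and 2 did not pass the test, with a median log2 ratio of -0.36, beside -0.18 over all genes.

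**Figure D5:**
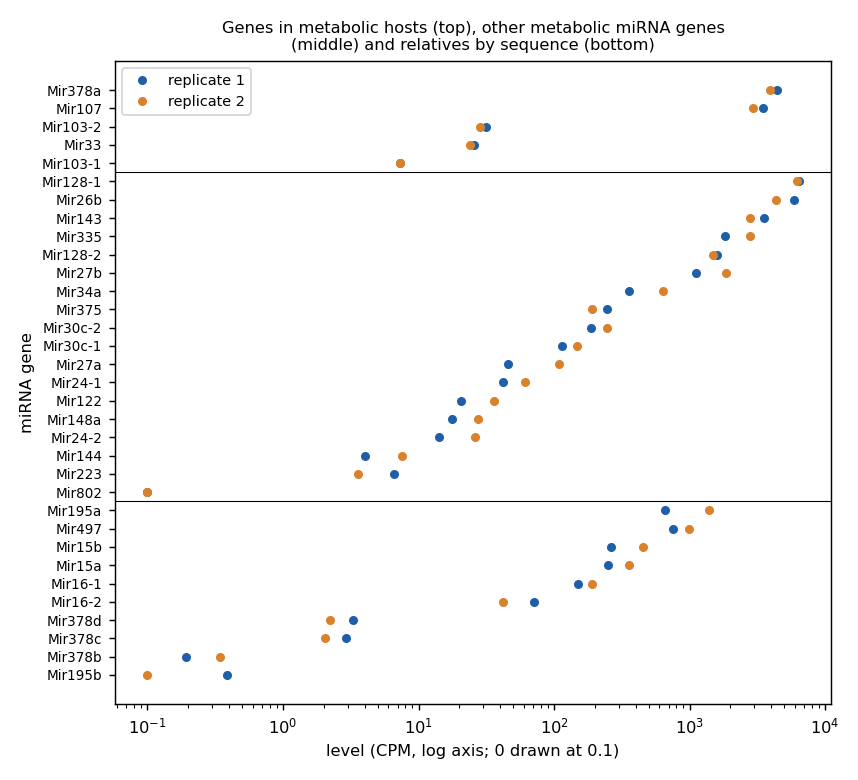
Points are levels in each library (CPM, log axis, with 0 drawn at 0.1) of the 5 genes (top block), the 18 other metabolic miRNA genes (middle block) and the 10 relatives by sequence (bottom block). Mir378a lies between Mir26b (mean 5152 CPM) and Mir143 (mean 3167 CPM), Mir107 lies beside Mir143, and the other genes named after miR-378 lie below 5 CPM.

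Genes with the most similar levels over both libraries, by the distance of log2(CPM + 1), were as follows. Nearest to Mir378a were Mir187 (4611 and 4109 CPM) and Mir361 (4610 and 4306 CPM), the second in an intron of Chm. Nearest to Mir107 were Mir143 (3534 and 2801 CPM) and Mir423 (3262 and 2650 CPM). Mir33 had Mir5099 and Mir32 beside it, Mir103-2 had Mir301 and Mir193a, and Mir103-1 had Gm23935 and Mir7052. The distances ran from 0.0428 for Mir33 and Mir5099 to 0.172 for Mir107 and Mir423, over 2 libraries only.

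Because the 5 miRNAs are best known from liver, muscle and fat, markers of other cells are given beside their levels. Of 10 neuronal genes 8 were detected, and the summed level of all 10 was 36495 CPM in replicate 1 and 39895 CPM in replicate 2, led by Mir132 at 17116 CPM (14669 and 19562 CPM). Of the 8 neuronal genes compared, 5 were called higher in replicate 1, among them Mir128-1 and Mir138-1, 2 were called higher in replicate 2, Mir132 and Mir137, and 1 did not pass, with a median log2 ratio of 0.11. The genes of miR-124, a miRNA that defines neurons, had few counts, with 16 and 12 at Mir124a-1, 0 and 1 at Mir124a-2, and 2 and 9 at Mir124a-3, and they too are copies of 1 mature sequence. Of the 9 muscle genes 4, Mir1a-1, Mir133a-1, Mir133a-2 and Mir133b, had no count in either library. The list summed to 85.1 and 156.7 CPM, almost all of it from Mir206. Mir1a-1 and Mir1a-2, like Mir133a-1 and Mir133a-2, are copies that share the limit of the Mir103 pair, so their counts do not show absence. The liver marker Mir122 had 28.3 ± 11.1 CPM (SD, n = 2), and the 3 red blood cell genes summed to 41.9 and 56.9 CPM. By the gene-assigned total, the sums of all 4 lists were lower in replicate 1 than in replicate 2. With that total, 39.4% of all genes compared were called higher in replicate 2, against 20.3% in replicate 1. With TMM scaling, median log2 ratios were 0.28 for neuron, -0.65 for liver, -0.58 for muscle and -0.42 for red blood cell genes. The sums were not computed with TMM scaling. Mir378a and Mir107 were called higher in replicate 1 with either scaling. The part of neurons, liver, muscle or red blood cells in the levels of the 5 genes was not tested.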

How the data were processed

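Total RNA of under 30 bases was sequenced, per the labels, and raw read counts were deposited for every miRNA gene of GENCODE M21 on mm10, per the text file deposited beside each table. Which aligner and counter made the counts is not given in the sources used here. The deposited count tables hold a column that ignores strand, one for reads on the gene's own strand and one for reads on the opposite strand, after 4 rows that name no gene. Of these, reads aligned to several places made up 43.6% of reads in replicate 1 and 43.2% in replicate 2. All 4 were left out of library sizes. The gene's own strand was used, and counts were divided by the sum over genes (5183641 and 5871233) to give CPM.

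All 2202 identifiers matched GENCODE M21, which gave symbols, positions and hosts. Sequences came from RefSeq. Shared stretches are the longest identical runs, on either strand, with a miRNA gene elsewhere. Genes that averaged 10 or more counts were compared with a 2-sided exact binomial test and Benjamini-Hochberg adjustment (scipy 1.17.1), since 1 group leaves no coefficient for edgeR's quasi-likelihood test. edgeR 4.0.16 (R 4.3.3) gave TMM factors and the dispersion, and DESeq2 1.42.0 alternatives. As no source mentions molecular identifiers, every interval and floor covers counting error alone.

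The members, lists and tests were chosen with earlier results of these data known. The text names the members, the 6 highest genes of the metabolic and relative lists, the 2 nearest genes in level to each member, and markers. Others, such as Mir802 and Mir34a, were chosen after their values were seen.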

Additional observations from a re-analysis of the deposited data

How the results depend on the processing

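With the column that ignores strand, Mir378a had 0 CPM and the 5 genes together took 0.348% of counts, against 0.746% ± 0.0740 (SD, n = 2) on the strand of the gene. Mir103-1 then had 7.81 CPM and Mir33 26.6 CPM. Gm25301, which overlaps Mir378a on the other strand, was also at 0 in that column; the cause was not tested. With the reads aligned to several places counted in the total and in no gene, the levels were 3.37 CPM for Mir103-1, 13.8 for Mir103-2, 1475 for Mir107, 11.5 for Mir33 and 1931 for Mir378a, and the joint share was 0.344%. TMM scaling and DESeq2 size factors gave 7.34 CPM for Mir103-1, beyond its very small SD, and moved the other levels by less than their SD. The number of genes called different between the libraries was 282, and 242 to 284 under the alternatives. A minimum of 100 counts in place of 10 left 4 of the 5 genes detected, and 13 in place of 17 of the metabolic list. No call of a member changed under an alternative that gave it a value. The calls were not repeated without a replicate, since the test needs both libraries. No paired analysis was possible because there is 1 group. Depth limits the 3 low genes most, with 38 to 168 counts a library.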

Other observations

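Of the 1018 counted miRNA genes matched by symbol to a mature sequence in the RefSeq table, 110 have a mature strand found whole in a miRNA gene elsewhere, Mir103-1 and Mir103-2 among them. Of these 110, 45 were detected (40.9%), with a median of 131 CPM among those detected, and 8 reached 1000 CPM or more. Of the 908 without such a strand, Mir107 and Mir33 among them, 351 were detected (38.7%), with a median of 52.1 CPM, and 87 reached 1000 CPM or more. Over all genes of each class, detected or not, the order was the reverse, with medians of 0.278 CPM with such a strand and 0.704 CPM without. These shares and medians describe the same libraries and were not tested.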
